A study of Homo sapiens with 4 samples.

Results

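Small nuclear RNAs (snRNAs), small nucleolar RNAs (snoRNAs) and small Cajal body RNAs (scaRNAs) were followed in T24 cells, an established human bladder carcinoma line. Of 58302 genes listed per library, 2901 carried one of these 3 GENCODE biotypes, and the 122 with a mean of at least 1 FPKM (reads or read pairs of a gene divided by its length and by the depth of its library) over the 4 libraries are described here. They comprised 48 of 1909 annotated snRNA genes, 68 of 943 snoRNA genes and 6 of 49 scaRNA genes. The genes were chosen by this mean over both groups, so the level itself is not a finding about them; it used no difference between the groups.

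The study compared T24 cells in which IGF2BP3, a protein that binds RNA carrying the m6A mark, had been knocked out by CRISPR/Cas9 with control T24 cells. The 2 IGF2BP3 knockout libraries came from a stable knockout line, and the 2 control libraries from T24 cells labelled control, with no treatment named for either group. Separate cultures or clones are not named for the replicates in the labels, so the spread between libraries may be technical. In the main fit, the SE and p-value of a gene rest on the spread of genes at a similar level. They do not measure the spread of that gene's own replicates. The RNA is labelled polyA RNA, whereas mature RNAs of these 3 classes as a rule end without a polyA tail.

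SnRNAs form the core of the spliceosome: U1 pairs with the 5' splice site, U2 with the branch point, U4 and U6 enter as a pair, and U5 holds the exons through a conserved loop. SnoRNAs guide the modification of ribosomal RNA, box C/D snoRNAs directing methylation of the ribose and box H/ACA snoRNAs pseudouridylation, and a few instead act in cleavage of the ribosomal precursor. ScaRNAs carry the same boxes, collect in Cajal bodies and guide the modification of snRNAs. Most human snoRNAs and scaRNAs are cut from introns of host genes, whereas most snRNAs have promoters of their own.

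The sequences below belong to snoRNA and scaRNA genes whose levels separated the groups and to the near-identical SNORD116 copies they are set against. They are the GENCODE 29 transcripts (GRCh38, the same assembly as hg38), 5' to 3'. In the SNORD116, SCARNA5 and SCARNA6 lines capitals mark the C box TGATGA and the last CTGA, which holds the D box. SCARNA7 is shown by its first 120 bases, with the C box in capitals.
SNORD116-6: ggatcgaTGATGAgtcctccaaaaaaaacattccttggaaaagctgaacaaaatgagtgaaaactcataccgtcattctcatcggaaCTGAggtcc
SNORD116-2: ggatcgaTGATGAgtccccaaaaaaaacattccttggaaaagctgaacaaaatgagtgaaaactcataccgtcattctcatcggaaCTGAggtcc
SNORD116-7: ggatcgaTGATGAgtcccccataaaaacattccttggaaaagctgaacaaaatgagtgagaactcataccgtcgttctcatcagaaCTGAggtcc
SCARNA7 (bases 1 to 120): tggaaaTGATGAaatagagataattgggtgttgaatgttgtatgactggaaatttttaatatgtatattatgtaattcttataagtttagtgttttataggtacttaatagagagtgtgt
SCARNA5: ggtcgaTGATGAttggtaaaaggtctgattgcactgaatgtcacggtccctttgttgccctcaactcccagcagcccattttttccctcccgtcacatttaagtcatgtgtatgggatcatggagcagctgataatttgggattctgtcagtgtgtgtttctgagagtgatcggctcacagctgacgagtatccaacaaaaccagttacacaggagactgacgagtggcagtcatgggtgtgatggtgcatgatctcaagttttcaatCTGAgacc
SCARNA6: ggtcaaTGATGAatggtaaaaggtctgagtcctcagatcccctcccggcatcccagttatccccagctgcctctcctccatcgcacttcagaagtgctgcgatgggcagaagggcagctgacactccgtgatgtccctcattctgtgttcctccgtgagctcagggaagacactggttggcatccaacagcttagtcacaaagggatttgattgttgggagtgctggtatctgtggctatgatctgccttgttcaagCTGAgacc

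IGF2BP3 itself was listed at 0 and 0.190 FPKM in knockout libraries 1 and 2, against 2.94 and 21.5 FPKM in control libraries 1 and 2. Those values correspond to 0 and 1 reads in the knockouts and 27 and 171 reads in the controls, and the log2 difference of -3.89 ± 2.83 (SE, n = 2 per group) had a limma adjusted p of 0.955. Reads recovered from the FPKM values put the depth at 811823 and 1240207 reads in the knockouts and 2162179 and 1870884 in the controls. A single read of a gene as short as SNORD116-6 was therefore worth 12.8 and 8.40 FPKM in the knockouts but 4.82 and 5.57 FPKM in the controls. Correlation of log2 levels across tested genes was 0.43 between the knockouts, 0.49 between the controls and 0.42 to 0.49 between groups, so libraries of a group were no more alike than libraries of different groups. The 6 epithelial marker genes fixed for this line summed to 1499 and 1167 FPKM in the knockouts and 451 and 584 FPKM in the controls, with EPCAM and CDH1 at 0 throughout. The 3 mesenchymal markers, VIM, CD44 and CDH2, summed to 678 and 596 FPKM in the knockouts and 521 and 372 FPKM in the controls. Both sums were higher in both knockouts than in both controls. All 5 leukocyte and 3 erythroid markers were at 0, and endothelial, fibroblast and neuronal sums reached at most 14.9 FPKM in any library. Whether the epithelial or mesenchymal difference has a part in the small RNA values was not tested, and in bulk RNA fewer cells of a type and less RNA per cell cannot be told apart.

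Reads of these genes took up 0.220% and 0.344% of the knockout libraries and 0.189% and 0.329% of the control libraries. Library 2 of each group held the larger share, and the groups overlapped. That overlap depended on SNORD3A, the most abundant gene. Without it, the other 121 genes came to 1063 and 1363 RPM (a unit defined with the biotype sums below) in the knockouts. In the controls they came to 753 and 1044 RPM. Both knockouts then lay above both controls, knockout 1 only narrowly above control 2. Detection was sparse: 63 of the 122 genes had reads in 1 library only, 22 in 2, 19 in 3 and 18 in all 4. The knockouts listed 44 and 74 of them above 0, and the controls 42 and 76. Control 1, the deepest library, thus showed the fewest. Of the 59 genes with reads in at least 2 libraries, knockout 1 lacked 24 and knockout 2 lacked 8, while control 1 lacked 24 and control 2 lacked 7.

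Most of the genes rested on few reads. In the 4 libraries together, 14 had 1 read, 34 had at most 3, 57 had at least 10 and 18 had at least 100. Replicates could disagree at substantial depth: 9 genes had at least 20 reads in one knockout and 0 in the other, and 12 did so among the controls. SNORD63B (ENSG00000222937), a box C/D gene inside HSPA9, had 134 reads in knockout 2 and 0 in each of the others. RNVU1-25, a U1 variant gene, had 103 reads in knockout 2 alone, RNU6-123P, a U6 pseudogene by name, had 41 in knockout 1 alone, and SNORA7B, a box H/ACA gene, had 204 in control 1 alone. At the threshold, SNORA3B and SNORA11F entered with 1 read each in control 2, while SNORA26 and ENSG00000252904, with 1 read each in control 1, lay just under it at means of 0.948 and 0.844 FPKM.

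The 3 biotypes did not share a pattern between the groups. ScaRNA reads summed to 283 and 101 RPM (reads per 1000000 gene-assigned reads of the library) in the knockouts, against 2.77 and 20.8 RPM in the controls. Both knockouts stood above both controls, and the mean was 16.3 times as high in the knockouts. SnRNA reads summed to 286 and 459 RPM in the knockouts and 124 and 304 in the controls, overlapping ranges with a ratio of means of 1.74. SnoRNA reads summed to 1635 and 2882 RPM in the knockouts and 1763 and 2962 in the controls, a ratio of 0.956, with library 2 high and library 1 low in both groups. Most of these snoRNA reads came from SNORD3A in every library. With 2 libraries against 2, an exact two-sided permutation test cannot go below p = 0.333, so no test is given for these sums.

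Among snRNA families, U5 reads came to 86.2 and 109 RPM in the knockouts and 25.9 and 74.8 in the controls, and U6 reads to 59.1 and 16.1 in the knockouts and 3.70 and 5.88 in the controls. In both families the knockouts lay above the controls. The U6 sums rested on few reads, 48 and 20 in the knockouts and 8 and 11 in the controls. Of the 48 in knockout 1, 41 came from a single gene, and all 20 in knockout 2 came from 1 gene. Summed over its copies, U6 had 576 and 151 FPKM in the knockouts and 34.6 and 59.6 FPKM in the controls. Its difference of 2.68 ± 0.70 in log2(FPKM + 0.5) did not pass (limma adjusted p = 0.0907 over 11410 genes and families) and ranged from 1.72 to 3.65 with 1 library left out. U1 stood at 82.5 and 235 RPM in the knockouts and 46.2 and 110 in the controls, and U4 at 48.0 and 83.9 in the knockouts and 34.7 and 106 in the controls; both overlapped. All 10 U6 genes with reads, out of 1276 annotated, were pseudogenes by name, and each had reads in a single library. Their median difference was -1.68, with 4 positive and 6 negative, opposite in sign to the difference of the U6 sum. The sign of each gene follows the group of the library in which it had reads. Box C/D snoRNA reads were nearly even at 1605 and 2580 RPM in the knockouts and 1540 and 2658 in the controls. That sum mostly followed a single gene. SNORD3A supplied 926 of 1303 and 2577 of 3200 box C/D reads in knockouts 1 and 2. In controls 1 and 2 it supplied 2459 of 3330 and 4196 of 4972. Box H/ACA reads were 29.6 and 281 RPM in the knockouts and 223 and 265 in the controls, so knockout 1 alone was low.

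**Figure D1:**
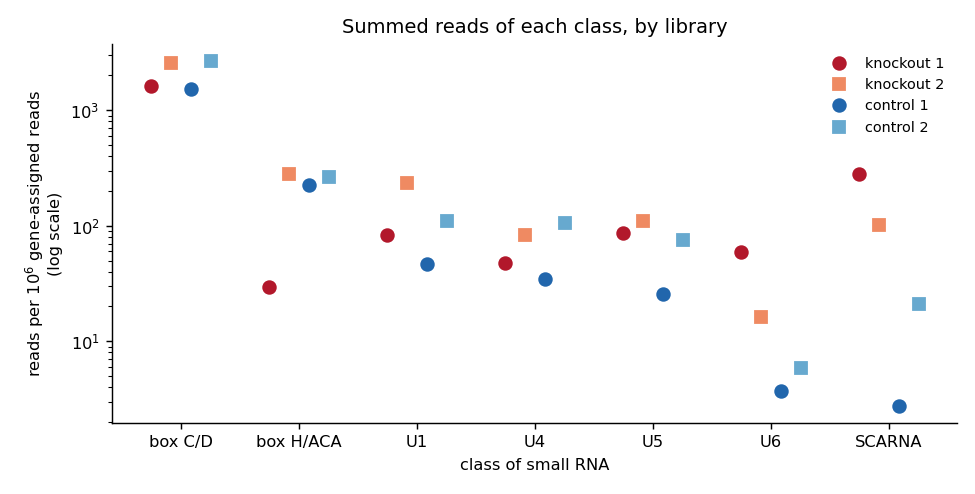
Summed reads of each class per 1000000 gene-assigned reads (log axis) in knockout 1, knockout 2, control 1 and control 2; each point is 1 library. ScaRNA, U5 and U6 sums of both knockouts lie above both controls, the U6 sums from 48 and 20 reads in the knockouts and 8 and 11 in the controls. Box C/D sums, most of whose reads came from SNORD3A, differ more between library 1 and library 2 than between groups.

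Gene by gene, the test was limma on log2(FPKM + 0.5), fitted over the 11463 genes with a mean of at least 1 FPKM, with Benjamini-Hochberg adjustment over all of them; differences below are knockout minus control on that scale. Of the 122 small RNA genes, 3 rose past an adjusted p of 0.05, where 0.0611% of all tested genes did so, and 0 fell, where 0.0262% did. At an unadjusted p of 0.05, 12 were higher and 3 lower, against 2.08% and 1.82% of all genes. Both knockout values exceeded both control values for 9 of the 122, against 12.1% of all genes, and lay below both for 6, against 14.4%. A gene with reads in 1 library cannot separate the groups, and 63 of the 122 were of that kind. None of the 3 genes that rose passed in a limma fit without the trend (adjusted p = 0.891). There a gene's own replicates count towards its error, together with a value common to all genes. The median length was 130.5 bases for the 122 and 3345.5 for all tested genes, so at equal FPKM the small RNA genes rest on fewer reads. The trend error is taken from genes of similar FPKM and does not allow for this. Limma-voom, run on recovered reads, called 0 of the 122. Whether the difference in length has a part in the 3 calls was not tested. With 1 library left out, their differences were lowest without control 1, at 5.22 for SNORD116-6, 3.27 for SCARNA7 and 2.94 for RNU5A-1. The median difference was 0.14 over the 122, with 65 positive and 57 negative, and -0.08 over all tested genes. By biotype it was 2.72 for scaRNAs, 0.26 for snRNAs and -0.02 for snoRNAs, and by box 0.52 for the 40 C/D genes and -1.60 for the 23 H/ACA genes. With 1 library left out, the scaRNA median ranged from 1.81 to 4.33, while the snRNA median (-0.22 to 1.04) and the snoRNA median (-1.61 to 1.24) changed sign. Since a gene seen in 1 library takes a sign from that library's group, these signs follow detection as well as level, and the counts and medians are descriptions.

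**Figure D2:**
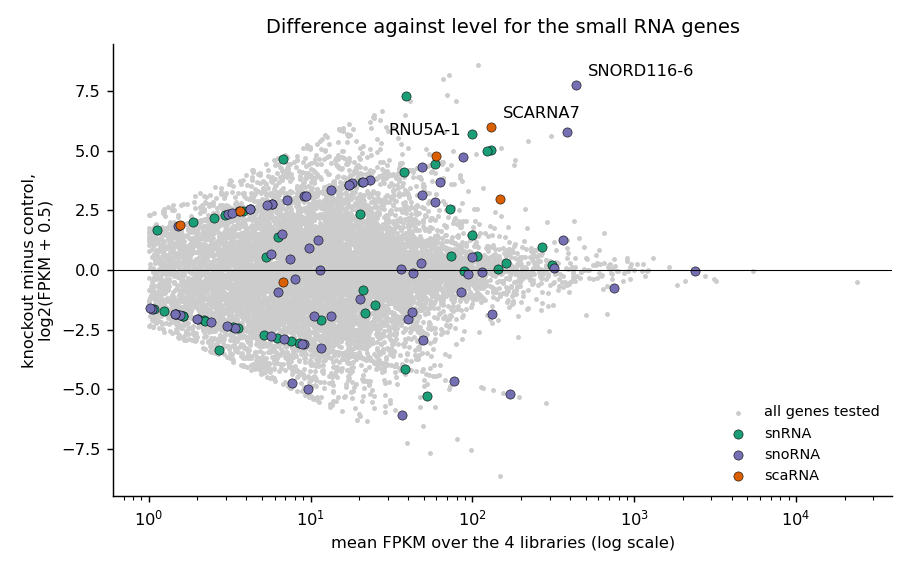
Knockout minus control difference in log2(FPKM + 0.5) against mean FPKM (log axis) for all 11463 tested genes (grey) and the 122 small RNA genes coloured by biotype. The 3 named points, SNORD116-6, SCARNA7 and RNU5A-1, passed the adjusted threshold; many of the others lie on curved edges where reads came from 1 library.

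Among the spliceosomal RNAs, RNU5A-1 (ENSG00000199568, chr15:65296051-65296166, plus strand, GRCh38, a gene of its own outside any annotated host) rose in the knockouts. It had 244 and 132 FPKM in the knockouts (23 and 19 reads), against 0 and 23.0 FPKM in the controls (0 and 5 reads). Both knockouts were above both controls, with control 1 at 0. The difference was 5.71 ± 1.26 (SE), adjusted p = 0.00896 by limma, and 2.94, with adjusted p = 0.541, when control 1 was left out.

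RNU5B-1, on the same chromosome and 94.0% identical to RNU5A-1, behaved otherwise. It had 53.1 and 271 FPKM in the knockouts and 83.7 and 166 FPKM in the controls. The highest and the lowest library were both knockouts, so the groups overlapped, and the difference was 0.03 ± 0.69 (limma adjusted p = 0.999).

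The split of U5 reads between copies therefore differed by library. RNU5A-1 took 32.9% of U5 reads in knockout 1 (95% exact Clopper-Pearson interval 22.1 to 45.1%, 23 of 70 reads) and 14.1% in knockout 2 (8.69 to 21.1%, 19 of 135). In the controls it took 0 of 56 reads in control 1, where the same interval reaches up to 6.38%, and 3.57% in control 2 (1.17 to 8.14%, 5 of 140). These intervals cover counting error only. With all U5 copies summed, the family had 733 and 929 FPKM in the knockouts and 221 and 640 FPKM in the controls. Both knockouts stayed above both controls, but the difference of 1.13 ± 0.42 did not pass (limma adjusted p = 0.818 over 11410 genes and families). RNU5E-4P, a pseudogene by name, had 216 and 40.3 FPKM in the knockouts and 27.0 and 8.91 FPKM in the controls. Its groups did not overlap, and its difference of 2.55 ± 1.05 did not pass (adjusted p = 0.955).

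U4 genes did not share a direction. RNU4-2 had 218 and 457 FPKM in the knockouts and 85.3 and 311 FPKM in the controls, with a difference of 0.95 ± 0.55 (limma adjusted p = 0.955). RNU4-1, which differs from RNU4-2 by 4 bases of 141, had 122 and 126 FPKM in the knockouts and 26.2 and 375 FPKM in the controls. The controls lay on either side of both knockouts. RNU4-40P, a pseudogene by name inside PHF20, had 0 and 11.3 FPKM in the knockouts, against 133 and 67.3 FPKM in the controls. It was low in both knockouts, and its difference of -5.29 ± 1.54 was the largest negative one among the separated small RNA genes with reads in both groups (limma adjusted p = 0.235).

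Among U1 genes, RNVU1-31, a variant U1 gene, had 180 and 526 FPKM in the knockouts and 223 and 316 FPKM in the controls, which overlapped, with a difference of 0.21 ± 0.51 (limma adjusted p = 0.986). RNU1-28P had 67.6 and 88.5 FPKM in the knockouts and 0 and 0 in the controls. Its limma adjusted p was 0.382. RNU1-28P is a pseudogene by name whose 164 bases are identical to 7 other annotated genes, 3 of which had reads in the controls alone. Over all 8 identical genes there were 9 and 18 reads in the knockouts (11.1 and 14.5 RPM) and 12 and 4 reads in the controls (5.55 and 2.14 RPM). The absence of RNU1-28P reads from the controls thus depends on how reads were placed among identical loci. With U1 copies summed, the difference was 0.97 ± 0.40 (adjusted p = 0.956).

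**Figure D3:**
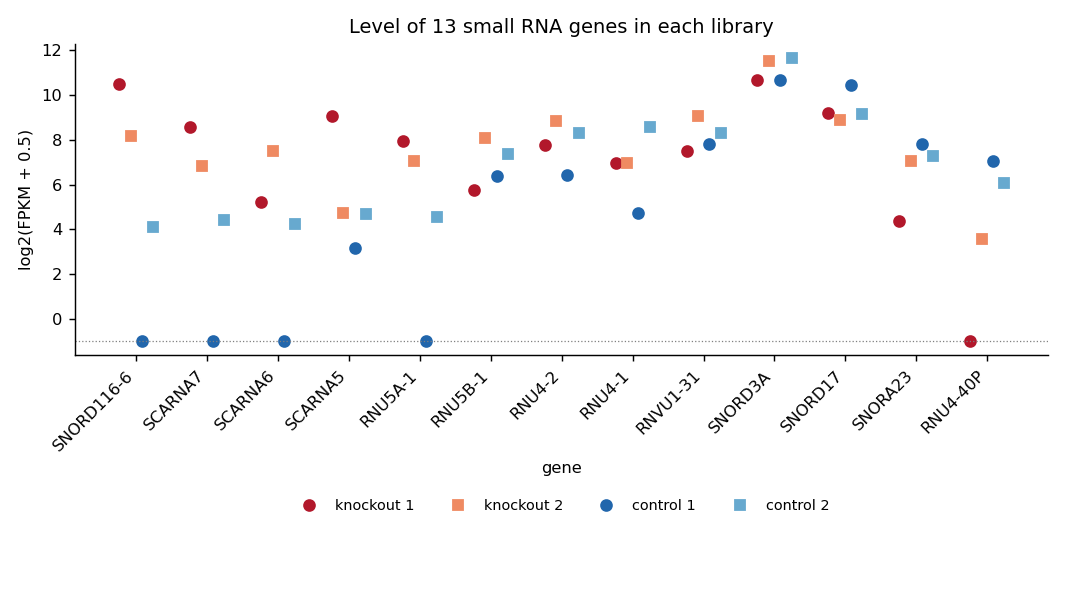
Level, as log2(FPKM + 0.5), of 13 small RNA genes in knockout 1, knockout 2, control 1 and control 2; each point is 1 library and the dotted line marks 0 FPKM. SNORD116-6, SCARNA7, SCARNA6 and RNU5A-1 are at 0 in control 1 and lower in control 2 than in either knockout, while SNORD3A is nearly level between groups.

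Among scaRNAs, SCARNA7 (ENSG00000238741, chr3:160514907-160515236, minus strand, in an intron of KPNA4), a guide for methylation of U1, rose in the knockouts. It had 384 and 112 FPKM in the knockouts (103 and 46 reads), against 0 and 21.1 FPKM in the controls (0 and 13 reads). Control 1 was again at 0, and both knockouts were above control 2. The difference was 5.99 ± 1.23, adjusted p = 0.00441 by limma, and without control 1 it was 3.27 (adjusted p = 0.879). The host KPNA4, an importin that carries proteins into the nucleus, had 38.0 and 21.9 FPKM in the knockouts and 30.0 and 11.5 FPKM in the controls. Those overlapped, with a difference of 0.62 ± 1.28 (adjusted p = 0.977).

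SCARNA5 and SCARNA6, composite scaRNAs with both kinds of box, lie in ATG16L1, an autophagy gene on chromosome 2. SCARNA5 had 531 and 26.3 FPKM in the knockouts and 8.38 and 25.2 FPKM in the controls, so knockout 1 alone stood far from the rest. SCARNA6 had 37.2 and 183 FPKM in the knockouts, against 0 and 18.2 FPKM in the controls, and here knockout 2 was the highest. Neither passed: the differences were 2.98 ± 1.02 (limma adjusted p = 0.663) and 4.77 ± 1.51 (adjusted p = 0.457). ATG16L1 itself had 2.63 and 3.64 FPKM in the knockouts and 32.6 and 3.05 FPKM in the controls, a difference of -1.59 ± 2.25 that did not pass (adjusted p = 0.955). SCARNA13, in SNHG10, had 0 and 17.6 FPKM in the knockouts and 1.68 and 7.77 FPKM in the controls. The scaRNA sum was thus made by SCARNA5 and SCARNA7 in knockout 1 and mainly by SCARNA6 and SCARNA7 in knockout 2.

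SNORD116-6 (ENSG00000207442, chr15:25065026-25065121, plus strand, in an intron of SNHG14), a box C/D snoRNA of the imprinted Prader-Willi region with no settled ribosomal target, rose in the knockouts. It had 1437 and 286 FPKM in the knockouts (112 and 34 reads), against 0 and 16.7 FPKM in the controls (0 and 3 reads). Both knockouts were well above both controls. The difference was 7.77 ± 1.01 with an adjusted p of 1.57e-10 by limma; without control 1 it was 5.22 (adjusted p = 0.740) and without knockout 1 it was 6.61 (adjusted p = 0.890).

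Of 33 annotated genes named SNORD116, 30 of them numbered copies in the chromosome 15 cluster, 7 had reads. SNORD116-7 had 41 reads in knockout 2 alone, SNORD116-15 had 7 in knockout 1 alone and SNORD116-8 had 2 in knockout 2 alone. SNORD116-2 had 1 read in knockout 2 and 27 in control 2, SNORD116-18 had 8 in control 2 alone and SNORD116-24 had 1 in control 2 alone. Control 1 had 0 SNORD116 reads, and each of the other libraries had a different leading pair of copies. The imprinted neighbour family SNORD115 had 50 annotated genes, and 0 of them had reads.

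**Figure D4:**
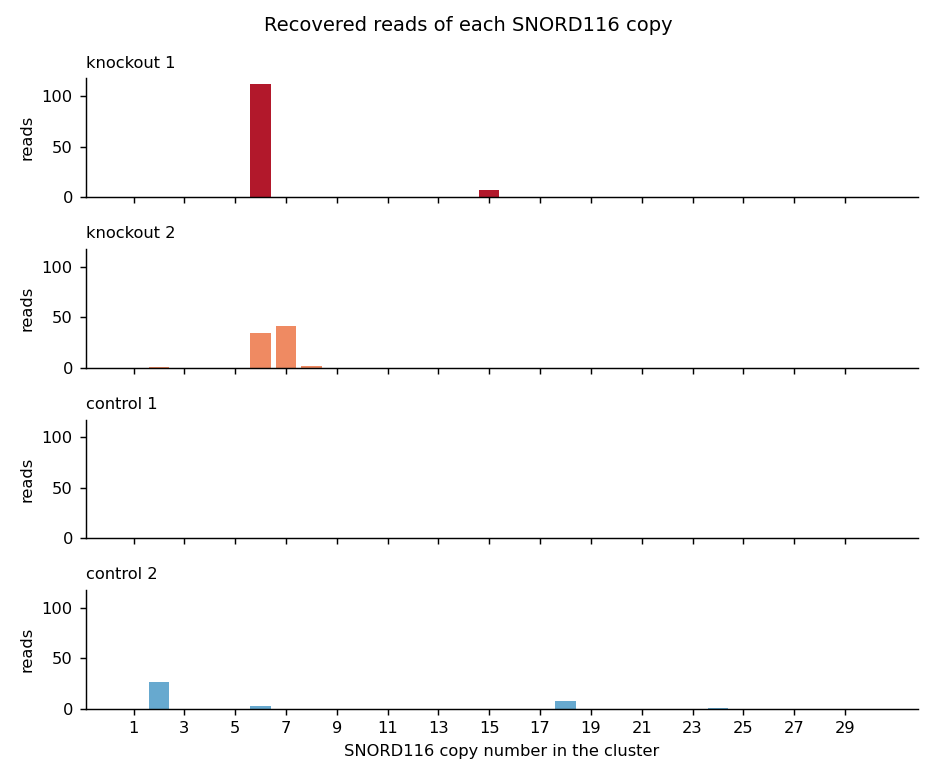
Recovered reads of each numbered SNORD116 copy in knockout 1, knockout 2, control 1 and control 2, with 1 panel per library. Copy 6 leads in knockout 1 with 112 reads, copies 6 and 7 share knockout 2 with 34 and 41 reads, copy 2 leads in control 2 with 27 reads, and control 1 has none.

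The copies that traded places are close in sequence. As printed above, SNORD116-6 has 1 base more than SNORD116-2 and matches it otherwise (99.0% identity). SNORD116-7 is identical to SNORD116-5, and against SNORD116-2 it differs, with positions counted from the 5' end of SNORD116-2, by A20C, A22T, A60G, A74G and G83A. SNORD116-6 took 94.1% of SNORD116 reads in knockout 1 (95% exact Clopper-Pearson interval 88.3 to 97.6%, 112 of 119) and 43.6% in knockout 2 (32.4 to 55.3%, 34 of 78), against 7.69% in control 2 (1.62 to 20.9%, 3 of 39). SNORD116-2 took 0 of 119 reads in knockout 1, where the same interval reaches up to 3.05%, and 1.28% in knockout 2 (0.0325 to 6.94%), against 69.2% in control 2 (52.4 to 83.0%). How the authors' counting placed reads that match several copies is not given in the sources used here, so the division between copies is uncertain.

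The sum over copies does not depend on how the counted reads were divided between copies. Reads matching several copies may have been left out of the counts, so the sum can still depend on their treatment. The family had 1531 and 659 FPKM in the knockouts (119 and 78 reads), against 0 and 221 FPKM in the controls (0 and 39 reads). Both knockouts remained above both controls. With an error set by the trend over genes and not by the spread of these libraries, the difference was 6.58 ± 0.73, adjusted p = 3.14e-15 by limma. It was 2.18 (adjusted p = 0.915) without control 1 and 5.97 to 10.97 when another library was left out, with adjusted p from 0.649 to 0.891. The host transcript SNHG14 had 7.35 and 9.004 FPKM in the knockouts and 8.99 and 14.96 FPKM in the controls. The host was not at 0 in control 1, and its difference was -0.49 ± 1.82 (adjusted p = 0.991).

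**Figure D5:**
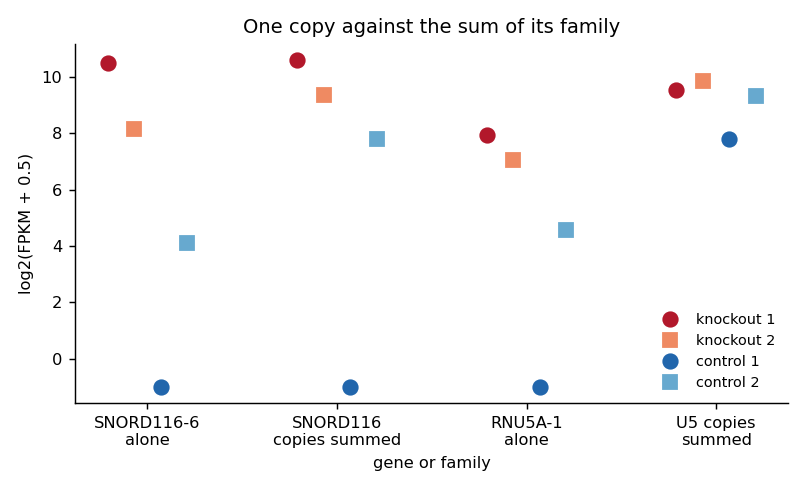
Level, as log2(FPKM + 0.5), of SNORD116-6 and RNU5A-1 alone and of all SNORD116 or U5 copies summed, in knockout 1, knockout 2, control 1 and control 2; each point is 1 library. Control 1 stays at 0 for the SNORD116 sum, whereas the U5 sum brings all 4 libraries between 221 and 929 FPKM.

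The other box C/D snoRNAs moved little or varied by library. SNORD3A, one of the genes for U3, which acts in early cleavage of the ribosomal precursor, was the most abundant, with 1632 and 2973 FPKM in the knockouts and 1627 and 3209 FPKM in the controls. Library 2 was the higher in each group, and the difference was -0.05 ± 0.27 (limma adjusted p = 0.994). SNORD3A supplied 51.8% (49.4 to 54.1%) and 60.4% (58.9 to 61.9%) of the small RNA reads in the knockouts and 60.2% (58.6 to 61.7%) and 68.2% (67.1 to 69.4%) in the controls, with 95% exact intervals. Its annotated transcript has 699 bases, far beyond the mature U3 RNA, and the FPKM is set by that length. With the 4 U3 genes that had reads summed, the difference was again -0.05 ± 0.27.

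SNORD17, a guide for the large ribosomal RNA in an intron of SNX5, had 582 and 476 FPKM in the knockouts and 1380 and 573 FPKM in the controls. The first of the knockouts lay just above control 2, and the difference of -0.76 ± 0.39 did not pass (limma adjusted p = 0.955). SNORD13, an RNA that acts on the small ribosomal RNA and has its own promoter, had 888 and 178 FPKM in the knockouts and 88.9 and 303 FPKM in the controls, which overlapped. SNORD12B and SNORD12C, both in ZFAS1, were at 0 in control 1, while their sum was 110 and 134 FPKM in the knockouts and 185 FPKM in control 2. Of the 40 C/D genes with reads, 26 held TGATGA in the first 25 bases and 35 held CTGA in the last 20, both read on the RNA's own strand, against 53.9% and 86.0% of all annotated C/D genes.

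Of the 23 box H/ACA snoRNA genes, 4 had knockout values below both controls, a share of 17.4% that is near the 14.4% of all tested genes, and 0 passed the test. SNORA23, in IPO7, had 20.3 and 133 FPKM in the knockouts and 224 and 156 FPKM in the controls, with a difference of -1.83 ± 0.74 (limma adjusted p = 0.955). SNORA75, a pseudouridylation guide in NCL, had 0 and 0 FPKM in the knockouts and 138 and 7.80 FPKM in the controls (limma adjusted p = 0.955). With the reads of each group pooled and a floor of 3 reads put in place of the knockout 0, it was 7.29-fold lower in the knockouts. Such a figure allows for counting error in the knockout 0 alone. It takes the control reads as exact and does not cover the spread between libraries. Most SNORA75 reads came from control 1, which had 41, against 2 in control 2. NCL, which encodes nucleolin, had 547 and 916 FPKM in the knockouts and 1023 and 943 FPKM in the controls. SNORA79B, in CCNB1IP1, had 0 and 0 FPKM in the knockouts and 31.2 and 7.22 FPKM in the controls. Its figure from pooled reads, 2.04-fold lower, has the same limits. SNORA73B, which acts in processing of the ribosomal precursor, was the most abundant of the class, with 72.5 and 676 FPKM in the knockouts and 107 and 417 FPKM in the controls. It differed more within groups than between them, with a difference of 0.07 ± 0.56 (adjusted p = 0.995). The trinucleotide ACA before the last 3 bases was present in 13 of the 23 H/ACA genes with reads, against 66.7% of all annotated ones.

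Of the 74 snoRNA and scaRNA genes, 66 lay on the same strand inside 51 annotated hosts, 39 of them protein coding and 8 encoding ribosomal proteins. Of the 45 hosts tested, 0 passed the adjusted limma threshold, where 0.0872% of all tested genes did, and 3 had an unadjusted p under 0.05, against 3.91% of all tested genes. The nearest was RPS12, a ribosomal protein gene that holds SNORD101 and SNORA33, with 975 and 342 FPKM in the knockouts and 58.6 and 319 FPKM in the controls. Control 1 was the low library here too, and the difference was 2.07 ± 0.52 (adjusted p = 0.0542). SNORD101 itself had 16.9 and 22.1 FPKM in the knockouts and 0 and 359 FPKM in the controls.

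SNHG17, a noncoding host whose 4 SNORA71 snoRNAs had reads, had 2.88 and 40.7 FPKM in the knockouts and 89.1 and 70.5 FPKM in the controls. Both knockouts were below both controls, and the difference was -2.76 ± 1.16 (limma adjusted p = 0.955). The SNORA71 copies together had 2 and 48 reads in the knockouts and 93 and 131 in the controls, or 18.4 and 286 FPKM in the knockouts and 321 and 320 FPKM in the controls. Host and snoRNA sums had the same order of groups, and the family difference was -2.13 ± 0.64 (limma adjusted p = 0.304). That difference rested on knockout 1: it was -0.17 with knockout 1 left out and -4.09 with knockout 2 left out. A small RNA could have reads where its host had none: this held in 10 of 123 cases in which a hosted gene was above 0 in a library. ZFAS1 was at 0 in knockout 1, where SNORD12B and SNORD12C had 8 reads. Only 4 of the 122 genes overlapped an annotated exon on the same strand, SNORD63B among them, although 259 of all annotated genes of these biotypes did. Of the annotated genes, 1.54% with such an overlap and 4.47% without one were among the 122.

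The proteins that build and process these RNAs were set beside them. Over 8 lists covering snoRNP, Sm, snRNP-specific, Cajal body, Integrator and trimming proteins, 96 of 98 genes were tested, 0 passed in either direction, where 0.0872% of all genes did, and 7 had an unadjusted limma p under 0.05, against 3.91% of all genes. Their median difference was -0.14, with 42 higher and 54 lower. NOP56, a core protein of box C/D particles, had 37.6 and 74.9 FPKM in the knockouts and 260 and 202 FPKM in the controls. Both knockouts were below both controls, with a difference of -2.10 ± 0.71 (adjusted p = 0.660). The other core C/D proteins did not follow: FBL, the methyltransferase, had 364 and 505 FPKM in the knockouts and 338 and 444 FPKM in the controls. The 4 H/ACA core proteins DKC1, NHP2, NOP10 and GAR1 had positive differences with a median of 0.90, and 0 of the 4 passed. For DKC1 and NHP2, control 2 (111 and 71.1 FPKM) was close to knockout 2 (115 and 75.5 FPKM). For NOP10 and GAR1 the groups overlapped, with 12.5 and 57.6 FPKM in control 2 against 11.6 and 32.9 FPKM in knockout 2. SNRPD3, a protein of the Sm ring, had 0 and 20.1 FPKM in the knockouts and 139 and 42.7 FPKM in the controls (adjusted p = 0.565). Among 25 tested snoRNA host genes of the fixed list, 9 were higher and 16 lower with a median of -0.47, and 0 passed.

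Other small RNAs that as a rule lack a polyA tail were detected in part. Of 12 matched genes, 6 were tested, and RN7SK, RN7SL1, RMRP, RPPH1, TERC and VTRNA1-3 were listed at 0 in all 4 libraries. RN7SL2, the RNA of the signal recognition particle, had 19393 and 20206 FPKM in the knockouts and 27246 and 28397 FPKM in the controls. Both knockout values were below both control values, and the difference of -0.49 ± 0.13 did not pass (limma adjusted p = 0.159). The Y RNA RNY1 had 512 and 485 FPKM in the knockouts and 94.1 and 454 FPKM in the controls, and RNY3 had 229 and 206 FPKM in the knockouts and 18.1 and 210 FPKM in the controls. In RNY1 and RNY3, control 1 was low and control 2 was close to the knockouts. RNY4 differed, with 231 and 25.2 FPKM in the knockouts and 28.9 and 94.7 FPKM in the controls, which overlapped.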

How the data were processed

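Each library's deposited table lists FPKM per Ensembl gene, which the authors derived from HTSeq counts, per the file names, on hg38, per the submitters' processing notes; per the file headers, each column name includes input. The aligner, annotation release, strand setting and treatment of reads matching several places are not stated in these sources, so reads of overlapping genes or antisense partners cannot be told apart. Genes were matched to GENCODE 29 by Ensembl ID (58039 of 58302) for biotype, host and sequence. FPKM times the longest transcript length came in whole multiples of 1 read (tolerance 0.001) for 96.4 to 96.5% of genes above 0, which gave reads and depth; all 122 small RNA genes had whole reads.

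Genes with a mean of at least 1 FPKM were tested with limma 3.58.1 (R 4.3.3; trend on mean level) on log2(FPKM + 0.5), 2 knockout against 2 control libraries, with no covariates. In this fit the error of a gene came from the trend, and its own replicates carried no weight. The fit was also run on simulated data with a small, fixed spread between replicates and changes put only into well-covered genes. That run does not show how the fit performs on genes with few reads, or on replicates that disagree as these do. Where a library was listed at 0, the difference on this scale depended on the pseudocount. That of SNORD116-6 was 8.95 with a pseudocount of 0.1, 7.77 with 0.5 and 7.25 with 1. Because 1 read of so short a gene is worth far more FPKM than the pseudocount, a 0 can overstate a difference. Depth limits precision: a listed 0 allows 3 reads.

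Genes named are those past the threshold, the SNORD116 copies, the 4 most abundant per biotype, up to 6 per direction among those whose groups did not overlap and with at least 10 reads, and those at the FPKM limit, with hosts and the pathway genes that changed most; SNORD13, SNORA73B, RNU5E-4P, the Y RNAs, RN7SL2, the families and the genes seen in 1 library were chosen after their values were seen. The small RNA genes and all lists were chosen with earlier results of these data known. A name ending in P was read as a pseudogene. Alternatives covered the pseudocount, filter, scaling, trend, replicate block, left-out libraries, voom on recovered reads and copies summed by family, the last chosen after seeing the data.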

Additional observations from a re-analysis of the deposited data

How the results depend on the processing

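SNORD116-6, SCARNA7 and RNU5A-1 kept their direction and their call under pseudocounts of 0.1 and 1, other filters, 3 scalings and the replicate block. They lost the call when any 1 library was left out: 0 genes of any kind and 0 small RNA genes then passed by limma, although 752 to 1025 genes had an unadjusted p under 0.05. The log2 differences in those fits ranged from 5.22 to 10.32 for SNORD116-6, 3.27 to 8.70 for SCARNA7 and 2.94 to 8.49 for RNU5A-1. Without the trend, where a gene's own replicates count, 0 genes passed (415 unadjusted), 0 of them small RNA genes, and limma-voom on recovered reads called 8 genes, 0 of them small RNA genes (1 higher at an unadjusted p). At an adjusted p of 0.1, 18 genes passed. Over all tested genes, the differences between replicates 1 and 2 were uncorrelated between the groups (-0.0040). Library 2 nevertheless listed more genes above 0 in each group. The counts were 7827 and 11127 in the knockouts and 8856 and 11433 in the controls. Whether the replicate numbers mark a batch was not tested. With the replicate block 14 genes passed by limma, against 10 without it. Copies summed by family left 7 genes past the threshold. The snoRNA median turned positive with a mean FPKM of at least 5 (0.07), for genes with at least 10 reads (0.07) and under limma-voom (0.45). Several differences changed sign when a library was left out: SCARNA13 (-3.09 to 2.09), RNVU1-31 (-0.56 to 0.99), RNU4-1 (-1.59 to 2.22), RNU5B-1 (-1.14 to 1.20) and SNORD3A (-0.54 to 0.44). Under limma-voom SCARNA13 turned to 0.32 and SNORD3A to 0.17. The cause was not tested. Genes with at most 3 reads cannot show a difference at this depth.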
